A study of Homo sapiens with 19 samples.

Results

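Chromatin of human MDA-MB-231 cells, a triple-negative breast cancer line, was examined at 7 genes that drive or brake the cell cycle or protect cells from apoptosis: CCND1, CCND3, CDK6, CDKN1A, E2F3, BCL2L1 and MCL1. The genes were chosen by name, with earlier results of these data known. All 7 were placed by their RefSeq positions in GRCh38, out of 20033 protein-coding genes. At each gene, superenhancers (broad regions dense in H3K27 acetylation, a mark of active enhancers) and binding peaks of OCT-2 were looked for within 10, 50 and 200 kb of the gene body. OCT-2, the product of POU2F2, is a transcription factor that binds octamer DNA and is best known from B lymphocytes.

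D-type cyclins, among them the products of CCND1 and CCND3, activate the kinases CDK4 and CDK6, which phosphorylate the retinoblastoma protein. Phosphorylation of that protein frees E2F factors such as E2F3, and these switch on the genes of DNA replication. CDKN1A encodes p21, an inhibitor of cyclin-dependent kinases that p53 induces. BCL2L1 (its long product is BCL-XL) and MCL1 encode members of the BCL-2 family that keep mitochondria intact and cells alive.

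The cells compared were 231Pa_Luc+OCT-2, parental MDA-MB-231 (231Pa) with luciferase and a POU2F2 transgene, and 231Pa_Luc+GFP, the same parent with luciferase and GFP. Both are polyclonal populations with stable transgene expression, both carry luciferase, and the sources do not give the promoter that drives the transgenes. H3K27ac was precipitated in 2 replicates of each population and OCT-2 in 2 replicates of 231Pa_Luc+OCT-2. Of the 19 samples of the series, these 6 were used. The series holds no OCT-2 precipitation of 231Pa_Luc+GFP, so the OCT-2 peaks have no counterpart in that population. The other lists are in hg19, in which the genes were not placed.

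The authors deposited 1 list of regions per group, made from its 2 replicates: 518 superenhancers of 231Pa_Luc+OCT-2, 337 of 231Pa_Luc+GFP and 5741 OCT-2 peaks, of which 5736 lie on assembled chromosomes. The lists hold positions only. Depth is therefore unknown, no value exists per replicate, and no difference between the populations could be tested against replicate error. The level of OCT-2 itself was not measured by these lists. As a check of the cell type, all 7 mesenchymal and basal-like markers (VIM, CD44, AXL, EGFR, FOSL1, MMP14 and ITGB1) lay within 10 kb of a superenhancer in both populations, against 0 of 8 luminal, 0 of 4 epithelial and 0 of 5 leukocyte markers in either; of 4 fibroblast and endothelial markers 0 did so in 231Pa_Luc+OCT-2 and 1, PECAM1, in 231Pa_Luc+GFP.

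The 7 genes fell into distinct patterns. BCL2L1 and MCL1 lay inside superenhancers of both populations, with OCT-2 peaks at BCL2L1 and none at MCL1. CCND3 lay at a superenhancer listed for 231Pa_Luc+OCT-2 alone and had the most OCT-2 peaks of the set. CDK6, CDKN1A and E2F3 had OCT-2 peaks but no superenhancer within 1 Mb, and CCND1 had neither within 50 kb.

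**Figure D1:**
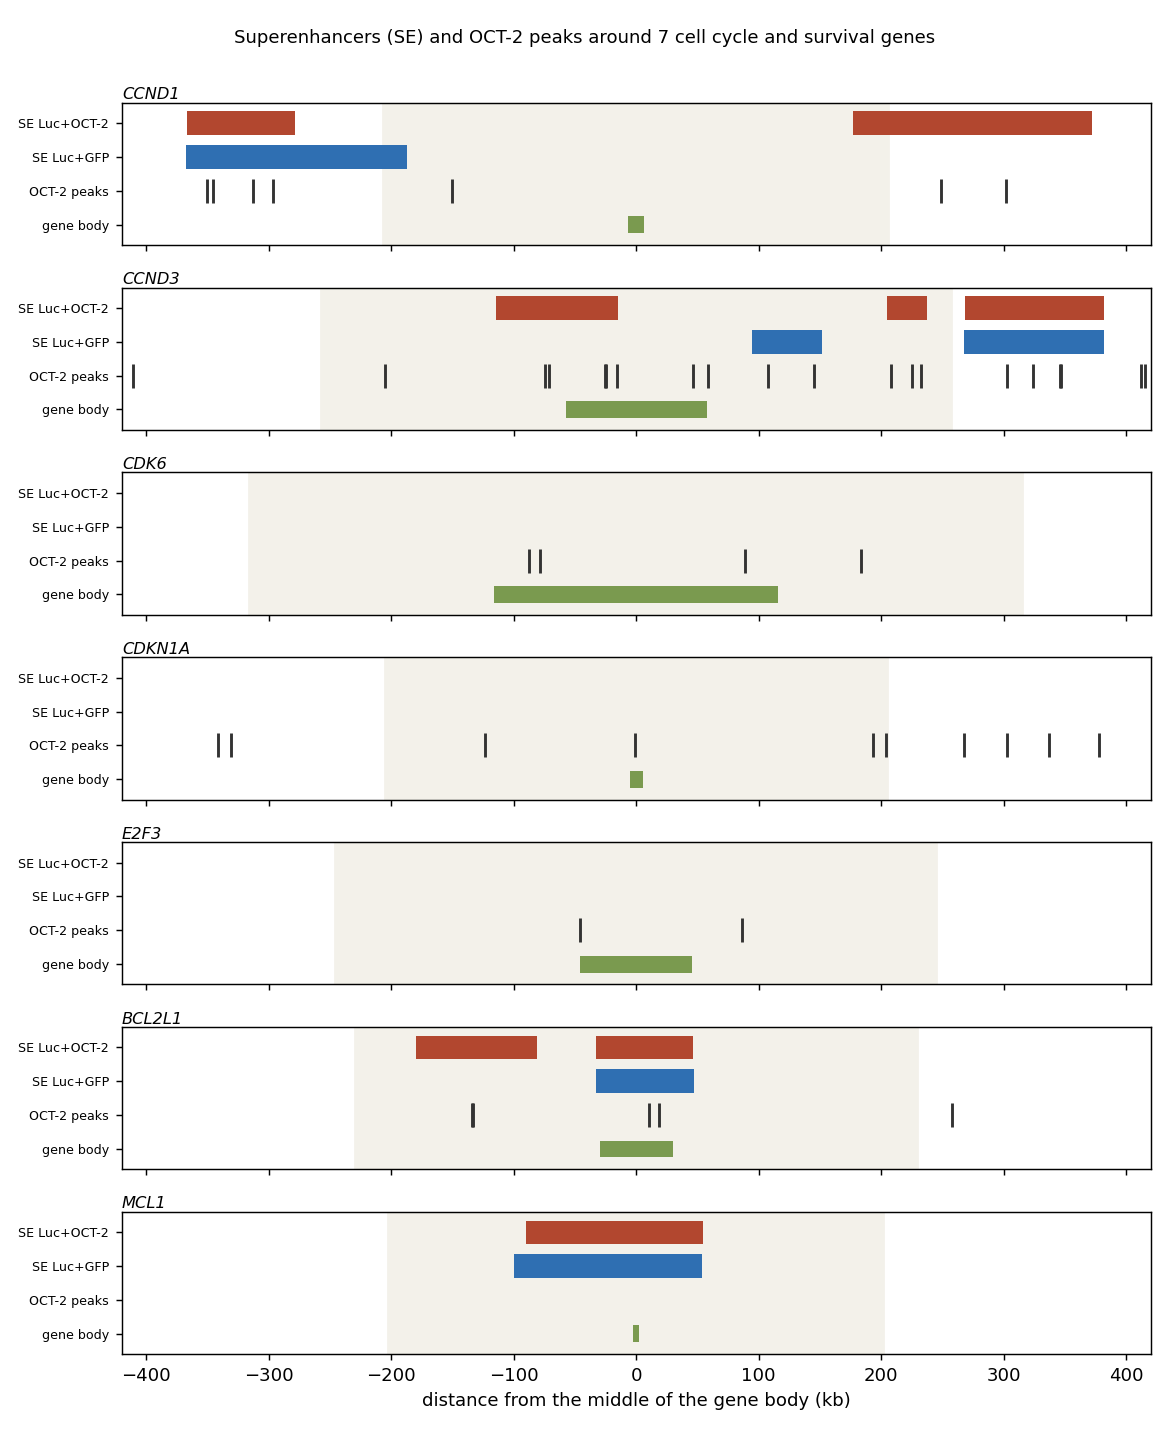
Positions of superenhancers (SE) of 231Pa_Luc+OCT-2 and 231Pa_Luc+GFP, OCT-2 peaks of 231Pa_Luc+OCT-2 (ticks) and the gene body at each of the 7 genes, as distance in kb from the middle of the gene body with coordinates rising to the right; the shaded span is the gene body and 200 kb on either side. Superenhancers cover the whole of BCL2L1 and MCL1 in both populations, cover 37.2% of CCND3 in 231Pa_Luc+OCT-2 alone, and are missing from the panels of CDK6, CDKN1A and E2F3.

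Within 10 kb of the gene body, 3 of the 7 genes (42.9%) had a superenhancer of 231Pa_Luc+OCT-2, against 5.75% of all protein-coding genes. For 231Pa_Luc+GFP the count was 2 of 7 (28.6%), against 4.31% of all genes. BCL2L1 and MCL1 had both (2 of 7, against 3.73% of all genes), and the difference between the populations at this distance is CCND3. Within 50 kb, 3 of 7 genes had a superenhancer of 231Pa_Luc+OCT-2 (7.92% of all genes) and 3 of 7 one of 231Pa_Luc+GFP (5.81% of all genes), because a control region lies 36.6 kb from CCND3. Within 200 kb, CCND1 joined in both lists, giving 4 of 7 in 231Pa_Luc+OCT-2 (15.8% of all genes) and 4 of 7 in 231Pa_Luc+GFP (11.8% of all genes). The median number of superenhancers of 231Pa_Luc+OCT-2 within 10 kb was 0 for the 7 genes and 0 for all genes. The genes were chosen with earlier results of these data known, so these shares describe the 7 genes and carry no test.

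OCT-2 peaks lay within 10 kb of 5 of the 7 genes (71.4%), CCND3, CDK6, CDKN1A, E2F3 and BCL2L1, against 15.5% of all protein-coding genes. The same 5 genes had a peak inside the gene body (10.7% of all genes) and within 50 kb (28.9% of all genes). Within 200 kb, 6 of 7 had a peak (58.1% of all genes), a window in which peaks are common at any gene. The median was 1 peak within 10 kb and 4 within 200 kb for the 7 genes, and 0 and 1 for all genes. CDK6 (232 kb) and CCND3 (115 kb) are long genes, since 5.69% of protein-coding genes are as long as CDK6 and 14.3% as long as CCND3. A peak lay within 10 kb of 35.9% of genes of 100 kb or longer and of 11.4% of shorter ones. Counted within 10 kb of the gene start instead (both ends for CCND1 and MCL1, whose strand was not in the tables used), 3 of 7 genes had a peak (CCND3, CDKN1A and E2F3), against 7.53% of all genes. By that count 2 of 7, BCL2L1 and MCL1, had a superenhancer of 231Pa_Luc+OCT-2 (4.88% of all genes) and the same 2 one of 231Pa_Luc+GFP (3.74% of all genes). A peak without a superenhancer of either list within 10 kb was found at 3 of 7 genes, CDK6, CDKN1A and E2F3 (13.1% of all genes).

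**Figure D2:**
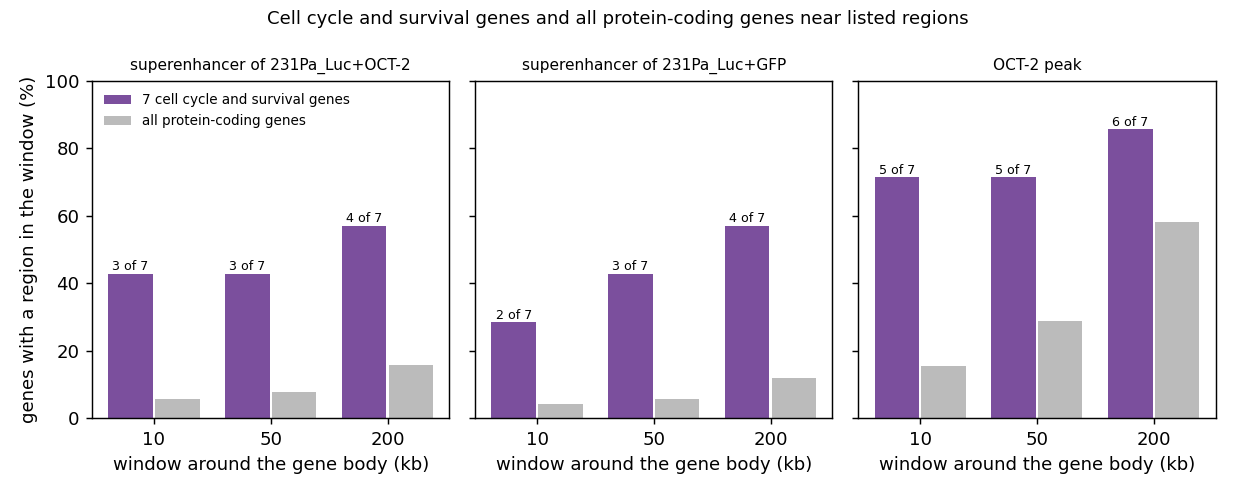
Share of the 7 genes (left bars, with their count) and of all 20033 protein-coding genes (right bars) that have a listed region within 10, 50 or 200 kb of the gene body, for superenhancers of 231Pa_Luc+OCT-2, superenhancers of 231Pa_Luc+GFP and OCT-2 peaks. The 7 genes are above all genes in each panel, with the smallest ratio for OCT-2 peaks within 200 kb (85.7% against 58.1%).

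Among the D-type cyclins, CCND3 (chromosome 6, 41934933 to 42050035, minus strand) had a superenhancer in 231Pa_Luc+OCT-2 that 231Pa_Luc+GFP did not list. A superenhancer of 100 kb (chromosome 6, 41877640 to 41977785) in 231Pa_Luc+OCT-2 covered 42.9 kb, or 37.2%, of the gene at its 3' side. It overlapped no region of 231Pa_Luc+GFP, and 1.93% of protein-coding genes lie within 10 kb of such a region. The 5' end of the gene body, at 42050035, lies 72.3 kb outside this region, while the start sites that RefSeq gives at 41941808 and 41939205 lie inside it. The region also overlaps USP49, a deubiquitinase gene, MED20, which encodes a Mediator subunit, and BYSL, a ribosome biogenesis gene whose middle is the closest to that of the region. At 100 kb it ranks 203 by width among the 518 superenhancers of its list.

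In 231Pa_Luc+GFP the nearest superenhancer to CCND3 lay on the other side of the gene, 36.6 kb upstream of its start. This region of 57.7 kb (chromosome 6, 42086668 to 42144356) overlaps TAF8, which encodes a subunit of TFIID, and C6orf132, and it met no region of 231Pa_Luc+OCT-2. Only 0.349% of protein-coding genes lie within 50 kb of a region listed for 231Pa_Luc+GFP alone, a class of few regions. A further superenhancer of 231Pa_Luc+OCT-2 alone (32.9 kb) lay 147 kb upstream, at MRPS10 and TRERF1. Just outside the 200 kb window, at TRERF1, both populations had a shared superenhancer of 114 kb, 211 kb from CCND3 in 231Pa_Luc+OCT-2 and 210 kb in 231Pa_Luc+GFP.

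OCT-2 peaks were dense along this stretch. CCND3 had 5 peaks within 10 kb, a number reached by 0.235% of protein-coding genes, 8 within 50 kb (0.0549% of genes) and 13 within 200 kb (0.12% of genes). Inside the gene body 4 peaks lay 11.1, 73.1, 82.5 and 83.3 kb downstream of the 5' end, and the last 3 of them are within the superenhancer. The peaks at 82.5 and 83.3 kb are 509 bp apart. Another peak (chromosome 6, 42050734 to 42051002) lay 0.699 kb upstream of the 5' end by its near edge, inside the body of TAF8. Of the 13 peaks, 8 lay in superenhancers of 231Pa_Luc+OCT-2 and 2 in the region listed for 231Pa_Luc+GFP alone, although the peaks were called in 231Pa_Luc+OCT-2. The superenhancer at CCND3 itself held 5 peaks, or 49.9 per Mb.

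CCND1 (chromosome 11, 69641156 to 69654474) had no superenhancer of either population and no OCT-2 peak within 50 kb, unlike CCND3. Its surroundings differed between the lists at a distance. In 231Pa_Luc+OCT-2 the nearest region was a superenhancer of 195 kb at the chloride channel gene ANO1 (chromosome 11, 69825155 to 70020354), 171 kb away, which overlapped no region of 231Pa_Luc+GFP. In 231Pa_Luc+GFP the nearest was a superenhancer of 180 kb at MYEOV on the other side (chromosome 11, 69280500 to 69460701), 180 kb away. The matching region of 231Pa_Luc+OCT-2 began 189 bp further in but was 88.7 kb wide, and its near edge was 272 kb from CCND1. The single OCT-2 peak within 200 kb (chromosome 11, 69497371 to 69497693) lay 143 kb from the gene in neither region, and no protein-coding gene is nearer to that peak than CCND1.

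CDK6 (chromosome 7, 92604921 to 92836573, minus strand), the kinase partner of the D-type cyclins, had OCT-2 peaks within its body and lay far from any superenhancer. The nearest region was 13.4 Mb away in 231Pa_Luc+OCT-2 and 37.4 Mb away in 231Pa_Luc+GFP. The 3 peaks in the gene body lay 26.6, 195 and 203 kb downstream of the gene start, and 1.12% of protein-coding genes have 3 or more within 10 kb. No superenhancer of either list within 1 Mb is the common case, at 55.7% or more of protein-coding genes. Genes on a chromosome where either list has no region, such as RB1, were not counted in this share. Per length the gene body held 1.30 peaks per 100 kb, against 3.48 in CCND3, 3.36 in BCL2L1, 1.09 in E2F3 and 9.20 in the short CDKN1A, whose value rests on 1 peak. Another peak lay 67.3 kb upstream of the start, in no protein-coding gene, and CDK6 is the nearest to it. With 4 peaks within 200 kb, CDK6, CDKN1A and BCL2L1 stand level, and 7.69% of protein-coding genes have as many.

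CDKN1A (chromosome 6, 36676463 to 36687332, plus strand), the p21 gene, held 1 OCT-2 peak in its body (chromosome 6, 36680428 to 36680854). The middle of this peak lies 1.93 kb downstream of the start site that RefSeq gives at 36678714. At 427 bp the merged peak is wide for this list, whose median is 267 bp, and 1.94% of peaks are as wide. Each listed peak merges 2 or 3 calls, so its width also depends on how these are offset and does not measure binding. Another 3 peaks lay 118, 187 and 198 kb away, near or in STK38, PPIL1 and C6orf89, and the next one outside the window was at 262 kb. The nearest superenhancer was 1.18 Mb away in 231Pa_Luc+OCT-2 and 1.18 Mb in 231Pa_Luc+GFP.

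E2F3 (chromosome 6, 20401879 to 20493714, plus strand), the gene of the transcription factor at the end of this pathway, was the only one of the 5 genes with a promoter in the RefSeq table to have an OCT-2 peak on it. Among all 35116 promoters in that table, 485 (1.38%), at 450 of 27305 genes, were overlapped by an OCT-2 peak. The peak at E2F3 (chromosome 6, 20401583 to 20401884, 302 bp) spans the whole 250 bases before its first start site. The middle of this peak lies 146 bp upstream of that site. An uncharacterised gene, LOC124901482, overlaps the same place, so the peak cannot be given to E2F3 alone. A second peak lay 40.6 kb beyond the 3' end, in CDKAL1. The nearest superenhancer was 3.63 Mb away in 231Pa_Luc+OCT-2 and 3.63 Mb in 231Pa_Luc+GFP.

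The promoter sequences bear on this peak, since OCT-2 recognises the octamer ATGCAAAT. The table of RefSeq promoters (GRCh38.p14) holds 10 entries for 5 of the 7 genes; CCND1 and MCL1 have none. The 250 bases before 5 of these start sites are shown 5' to 3': both starts of E2F3, the first under the peak, then those of CDKN1A and CCND3 nearest to a peak, and the outer start of BCL2L1 inside its superenhancer. Capitals mark the octamer, the E2F motifs TTTCCCGC and TTTGGCGC, the GC box (GGGCGG), the CCAAT box and the TATA box (TATAAA), each searched on both strands.
E2F3 first start (chr6:20401629-20401878, plus strand): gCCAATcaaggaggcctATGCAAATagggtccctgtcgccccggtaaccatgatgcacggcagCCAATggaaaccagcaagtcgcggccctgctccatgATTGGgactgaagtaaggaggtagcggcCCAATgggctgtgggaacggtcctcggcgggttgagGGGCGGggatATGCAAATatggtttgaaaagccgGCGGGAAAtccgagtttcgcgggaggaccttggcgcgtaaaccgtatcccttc
E2F3 second start (chr6:20403364-20403613, plus strand): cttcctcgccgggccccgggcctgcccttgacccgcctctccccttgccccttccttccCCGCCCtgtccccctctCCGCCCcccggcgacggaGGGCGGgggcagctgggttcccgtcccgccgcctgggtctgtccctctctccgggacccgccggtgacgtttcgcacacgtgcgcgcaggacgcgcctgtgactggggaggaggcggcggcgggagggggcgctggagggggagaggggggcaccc
CDKN1A (chr6:36678464-36678713, plus strand): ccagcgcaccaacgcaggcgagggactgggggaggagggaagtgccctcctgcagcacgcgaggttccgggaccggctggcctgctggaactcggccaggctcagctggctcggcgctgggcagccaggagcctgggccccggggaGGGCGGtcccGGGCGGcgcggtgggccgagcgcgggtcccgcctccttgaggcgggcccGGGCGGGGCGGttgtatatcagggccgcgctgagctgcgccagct
CCND3 start at 42048688 (chr6:42048689-42048938, minus strand): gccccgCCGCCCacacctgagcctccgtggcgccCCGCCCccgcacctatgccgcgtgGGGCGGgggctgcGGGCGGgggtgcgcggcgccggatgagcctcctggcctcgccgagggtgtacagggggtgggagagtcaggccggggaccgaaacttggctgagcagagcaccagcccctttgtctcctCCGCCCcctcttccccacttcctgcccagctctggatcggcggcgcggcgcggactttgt
BCL2L1 outer start (chr20:31723964-31724213, minus strand): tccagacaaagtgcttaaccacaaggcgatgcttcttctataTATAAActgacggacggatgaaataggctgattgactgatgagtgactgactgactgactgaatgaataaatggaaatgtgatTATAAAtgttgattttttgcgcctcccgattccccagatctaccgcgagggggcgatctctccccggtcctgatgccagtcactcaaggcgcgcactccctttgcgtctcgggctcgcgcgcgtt

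The first E2F3 promoter held the octamer ATGCAAAT at 2 positions, -233 and -77 (the first base of the match counted back from the start site), 156 bp apart. It also held CCAAT or its complement at 4 positions, 1 GC box at -87 and 1 E2F motif at -53, read there as GCGGGAAA. Of all 35116 promoters of this length, 1.63% held the octamer, 1.93% an E2F motif, 42.6% a GC box, 32.0% CCAAT and 10.7% TATAAA. The octamer stood in 0 of the other 9 entries of the 5 genes, and TATAAA stood at 2 positions of the outer BCL2L1 start. Among the 485 promoters that an OCT-2 peak overlaps, 74 (15.3%) held the octamer, against 499 of 34631 without a peak (1.44%), and 5 (1.03%) held it at 2 or more positions, against 8 (0.0231%). This count was made after the E2F3 promoter had been seen, and a match is a description of letters, not of a site used in the cells.

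**Figure D3:**
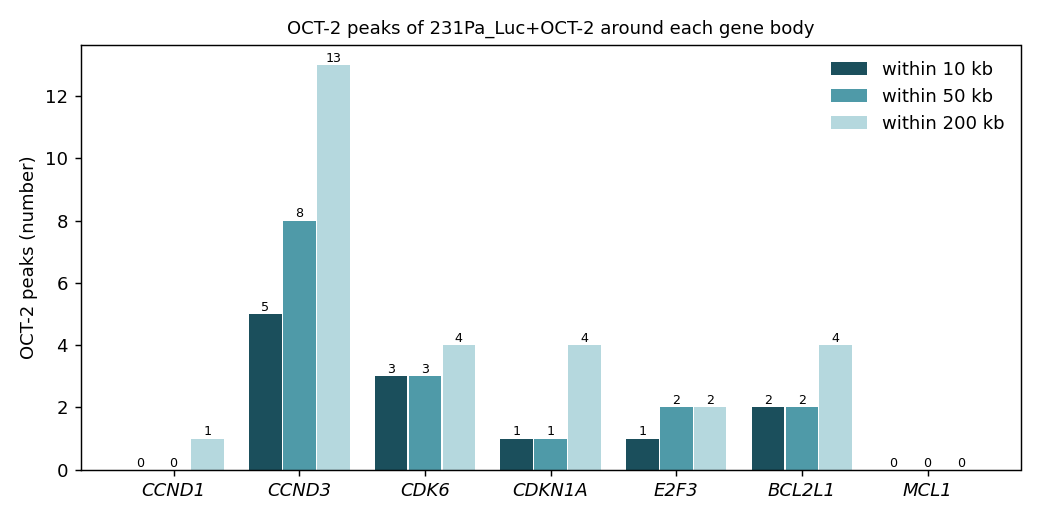
Number of OCT-2 peaks of 231Pa_Luc+OCT-2 within 10, 50 and 200 kb of the body of each of the 7 genes. CCND3 stands highest in each window with 5, 8 and 13 peaks, CDK6, CDKN1A and BCL2L1 each have 4 within 200 kb, and MCL1 has 0 in all 3.

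Of the survival genes, BCL2L1 (chromosome 20, 31664452 to 31723963, minus strand) lay inside a superenhancer with almost the same edges in both populations. It was 79.5 kb wide in 231Pa_Luc+OCT-2 (chromosome 20, 31661219 to 31740736) and 80.0 kb in 231Pa_Luc+GFP (31661252 to 31741227), so that the starts differed by 33 bp and the ends by 491 bp. The whole gene is covered, BCL2L1 is the protein-coding gene closest to the middle of the region, and the other protein-coding gene in it is TPX2, which encodes a spindle assembly factor. Shared superenhancers lay within 10 kb of 3.87% of protein-coding genes. A pair of OCT-2 peaks lay within the gene, 11.1 kb (chromosome 20, 31712618 to 31713042) and 19.2 kb (31704605 to 31704972) downstream of the outer start, and 3.63% of genes have as many within 10 kb. They are 425 and 368 bp wide, and 2.06% and 8.53% of all peaks are as wide. As at CDKN1A, these are widths of merged calls and do not measure binding.

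A second superenhancer near BCL2L1 was listed for 231Pa_Luc+OCT-2 alone. It was 98.9 kb wide (chromosome 20, 31514188 to 31613092), lay 51.4 kb beyond the 3' end of BCL2L1 and overlaps HM13, MCTS2 and ID1, the gene of an inhibitor of basic helix-loop-helix factors that BMP induces. It held 2 OCT-2 peaks 564 bp apart, 103 and 104 kb from BCL2L1. In 231Pa_Luc+GFP no other superenhancer was listed within 200 kb of BCL2L1.

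MCL1 (chromosome 1, 150574558 to 150579610) also lay inside a superenhancer of both populations, but without OCT-2 peaks. The region was 145 kb wide in 231Pa_Luc+OCT-2 (chromosome 1, 150486823 to 150631430) and 154 kb in 231Pa_Luc+GFP (150477216 to 150631074). The region of 231Pa_Luc+OCT-2 overlapped that of 231Pa_Luc+GFP over 99.8% of its width, and the control region reached 9607 bp further at its lower end. Its neighbours in the region are TARS2, ECM1, ADAMTSL4, LOC124904417 and ENSA, which encodes an inhibitor of a mitotic phosphatase, and the middle of the region is closest to ADAMTSL4, so the region cannot be given to MCL1 alone. The nearest OCT-2 peak was 491 kb away, and 41.9% of protein-coding genes have no peak within 200 kb. Both superenhancers of MCL1 are among the wider of their lists, ranking 82 of 518 in 231Pa_Luc+OCT-2 and 81 of 337 in 231Pa_Luc+GFP.

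**Figure D4:**
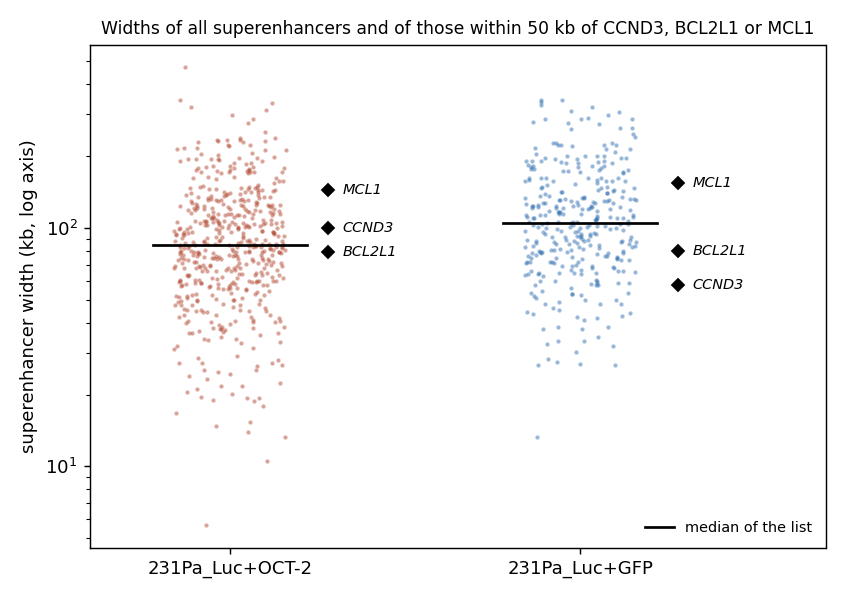
Width in kb (log axis) of every superenhancer of 231Pa_Luc+OCT-2 (left) and 231Pa_Luc+GFP (right), with the median of each list as a line and the regions within 50 kb of CCND3, BCL2L1 or MCL1 as diamonds. MCL1 stands above the median in both lists (84.9 kb in 231Pa_Luc+OCT-2 and 105 kb in 231Pa_Luc+GFP), BCL2L1 below it in both, and CCND3 above it in 231Pa_Luc+OCT-2 and below it in 231Pa_Luc+GFP, where the diamond is another region 36.6 kb away.

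Of the 12 OCT-2 peaks within 10 kb of the 7 genes, 5 (41.7%) overlapped a superenhancer of 231Pa_Luc+OCT-2, and of the 28 within 200 kb, 12 (42.9%) did, against 904 of all 5736 peaks (15.8%). All 4 peaks of BCL2L1 and 8 of the 13 of CCND3 were inside such regions. These make up all 12, and both genes lie at superenhancers of that list. The shares therefore describe CCND3 and BCL2L1 and not the 7 genes as a set. The 11 peaks within 200 kb of CCND1, CDK6, CDKN1A and E2F3 were in no superenhancer of either list. For CDK6, CDKN1A and E2F3 this follows from the lack of any superenhancer within 1 Mb.

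The wider pathway was taken as 54 further genes of the cyclins, their kinases and inhibitors, the retinoblastoma and E2F families, p53 control and the apoptosis machinery, all of which matched. Within 10 kb, 5 of 54 (9.26%) had a superenhancer of 231Pa_Luc+OCT-2, against 5.75% of all genes, and 4 of 54 (7.41%) one of 231Pa_Luc+GFP, against 4.31%. OCT-2 peaks lay within 10 kb of 8 of 54 (14.8%), near the share of all genes (15.5%).

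Of the cell cycle genes among them, CDKN1B, the gene of the p27 inhibitor, lay in a shared superenhancer of 171 kb in 231Pa_Luc+OCT-2 and 171 kb in 231Pa_Luc+GFP. BAD, a pro-apoptotic member of the BCL-2 family, lay in a shared one of 195 kb in 231Pa_Luc+OCT-2 and 195 kb in 231Pa_Luc+GFP, and CFLAR, which encodes the caspase-8 inhibitor FLIP, in a shared one of 68.8 kb in 231Pa_Luc+OCT-2 and 69.0 kb in 231Pa_Luc+GFP. BIRC2 and BIRC3, neighbouring genes of inhibitors of apoptosis, shared 1 superenhancer of 231Pa_Luc+OCT-2 alone (130 kb) with 5 OCT-2 peaks. BAK1, whose product permeabilises mitochondria, lay at a region of 231Pa_Luc+GFP alone (63.1 kb) with 2 OCT-2 peaks. Superenhancers of this list lay both at genes that promote survival and at genes that promote death.

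Within 50 kb, BIRC2 and BIRC3 had 4 OCT-2 peaks each, and BAK1, HRK, PMAIP1 and WEE1 had 2 each. HRK and PMAIP1 encode pro-apoptotic BH3-only proteins, and WEE1 a kinase that holds back entry into mitosis. BAD had 1 peak, and so did BAX, the gene of another pore-forming protein of mitochondria, as did others of the list. CCND3, with 8, exceeded every one of the 54 by count. Its body is 115 kb long, against 31.5 kb for BIRC2 and 21.9 kb for BIRC3, and these counts were not set against length.

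Patterns were compared by the number of OCT-2 peaks within 10, 50 and 200 kb and the distance to the nearest superenhancer in each of the 2 populations. All were taken on a log2 scale and summed as absolute differences, with each distance given 50% of the weight of a peak count. A sum of 0 is the same pattern. Most like MCL1 was CDKN1B (1.0), which also lies in superenhancers of both populations with 0 peaks within 50 kb. BCL2L1 was closest to CFLAR (2.49), with 1 peak within 10 kb. The gene most like CDKN1A was RBL1 (1.02), that most like E2F3 was HRK (1.13) and that most like CCND1 was BCL2L2 (1.11). These are not full matches. HRK has 0 peaks within 10 kb, where E2F3 has 1, and BCL2L2 has 0 within 200 kb, where CCND1 has 1. No gene of the wider list came within 3 of CCND3 or of CDK6. The closest were BIRC3 to CCND3 (5.73) and PMAIP1 to CDK6 (3.38). BIRC3 also lies at a superenhancer of 231Pa_Luc+OCT-2 alone, but its nearest region of 231Pa_Luc+GFP is 5973 kb away, against 36.6 kb for CCND3.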

How the data were processed

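H3K27ac and OCT-2 were profiled by ChIP-seq, with 2 replicates per group. The values used are region starts and ends in hg38, per the file names the authors gave. Per the submitters' processing notes the tools were HOMER, bedtools, Bowtie and Bowtie2 2.2.2.6, with no roles given; thresholds are not given in the sources used here. Each deposited list joins its 2 replicates, and each region merges 2 or 3 calls. The 7 region lists in hg19 were not used, since coordinates were not converted.

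Gene bodies came from RefSeq (GRCh38.p14, 20033 protein-coding genes on assembled chromosomes), which gives neither exons nor introns here; strand and promoter sequence came from its promoter table. Distances run between nearest edges, coordinates are 1-based, and superenhancers that overlapped by at least 1 bp were called shared. No test was run, because no value exists per replicate. Alternatives were window, gene start, nearest gene, list size, merged calls and overlap. The genes and lists were chosen with earlier results of these data known. Named from the wider list were genes with a superenhancer within 10 kb or among the 8 with most peaks within 50 kb (ties in alphabetical order), and the gene most like each of the 7. Counting was tested on simulated data (300 of 300 genes equal to a direct count). Python 3.11.15, numpy 2.4.6, pandas 2.3.3 and matplotlib 3.10.9 were used.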

Additional observations from a re-analysis of the deposited data

How the results depend on the processing

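The counts of genes at superenhancers and with OCT-2 peaks were recomputed with other rules. Assigned to the nearest protein-coding gene alone, superenhancers of 231Pa_Luc+OCT-2 took in 1 of the 7 genes and those of 231Pa_Luc+GFP 1, BCL2L1 in each case, since the middle of the CCND3 region is closer to BYSL and that of the MCL1 region to ADAMTSL4. Within 200 kb the count for 231Pa_Luc+GFP was 4. Counted around gene starts, 3 genes had an OCT-2 peak, without CDK6 and BCL2L1, whose peaks lie more than 10 kb from the gene start. With regions of 3 or more merged calls, of which the lists hold 6 of 231Pa_Luc+OCT-2, 6 of 231Pa_Luc+GFP and 3 OCT-2 peaks, each count was 0. So few regions cannot show how the counts depend on this rule. With the 337 widest superenhancers of 231Pa_Luc+OCT-2 (69.6 kb or wider) the count for that list was 3, as before. With 50% of the narrower region required as overlap, 4 of the 5 regions within 10 kb were shared, also as before. These 4 are the regions at BCL2L1 and MCL1, each counted in both lists. They overlap over 93.8% or more of their width and the CCND3 region overlaps none, so this rule could not move the count. Assigned to the nearest gene alone, OCT-2 peaks also took in 5 genes, but CCND1 came in and E2F3, whose promoter peak went to LOC124901482, dropped out. With the gene body alone, with 50 kb and in the remaining settings the counts of genes stayed within 1.5 times. The difference between the populations at CCND3 was nevertheless lost in some settings. Within 50 kb both had 3 genes, because CCND3 entered the count of 231Pa_Luc+GFP. Around gene starts both had 2, because CCND3 left the count of 231Pa_Luc+OCT-2. Peaks per gene moved further within 50 kb, from 5 to 8 at CCND3 and from 1 to 2 at E2F3. No paired analysis was possible because the lists carry no value per replicate, and for the same reason no replicate could be left out. Peak heights, depth and thresholds are unknown, so how close a region listed in 1 population came to being listed in the other is not known.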

Other observations

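The stretch around CCND3 alternated between the lists. Along rising coordinates it held a superenhancer of 231Pa_Luc+OCT-2 alone (100 kb), 1 of 231Pa_Luc+GFP alone (57.7 kb), another of 231Pa_Luc+OCT-2 alone (32.9 kb) and a shared 1 at TRERF1 (114 kb), with 5, 2, 3 and 4 OCT-2 peaks. Only 2 of 20033 protein-coding genes (0.00998%) lay within 10 kb of a region of 231Pa_Luc+OCT-2 alone and within 50 kb of a region of 231Pa_Luc+GFP alone. They are CCND3 and GUCA1B, which lie at the same stretch. This combination was chosen after its values had been seen.

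At the MYEOV region below CCND1, the 4 OCT-2 peaks lay in the part that both populations list, and the 91328 bp by which the control region reached further towards CCND1 held none of the peaks called in 231Pa_Luc+OCT-2.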
